A study of Mus musculus with 40 samples.

Results

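Nearly all of the genes described here encode proteins of the cytosolic ribosome. They were chosen by symbol, as Rpl or Rps followed by a number with or without a, x or l, together with Rplp0, Rplp1, Rplp2 and Rpsa. Symbols ending in -ps and the Rps6k kinases were left out, and a gene had to reach 1 FPKM (fragments scaled to transcript length and library depth) in at least 4 of 8 or 3 of 6 libraries of a table. This gave 80 members in total HSCs, 79 in total MPPs and 78 in each of the 4 H2B-GFP populations, 81 genes in all of 30365 gene symbols listed in the series. Of these, 49 have symbols of the large subunit and 32 of the small subunit, and 77 were members in all 6 tables. Rpl32l and Rps4l among them are annotated as pseudogenes in GENCODE.

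HSCs are haematopoietic stem cells and MPPs the multipotent progenitors they give rise to, here sorted from adult bone marrow of C57BL/6 mice. The KO groups are labelled HIRA KO. Hira encodes a chaperone of histone variant H3.3, and in both cohorts its deletion was induced by poly(I:C). The protocol names floxed alleles and Mx1-Cre, a recombinase that poly(I:C) switches on in blood cells and in other interferon-responsive cells, for the H2B-GFP mice, and gives no alleles for the first cohort. The protocol gives 2 doses of 20 µg poly(I:C), and its wording is the same for KO and WT samples. The labels do not say whether WT mice carried Mx1-Cre. For the first cohort, sorting took place 1 week after dose 1 of poly(I:C), with 2500 cells in a library, and gave 4 KO and 4 WT libraries of total HSCs and the same numbers of total MPPs. In the H2B-GFP cohort, mice carried Mx1-Cre, Hirafl/fl, Rosa26-M2rtTA and TetOP-H2B-GFP alleles and drank doxycycline (2 mg/ml, sweetened by sucrose at 10 mg/ml) during a pulse of 6 weeks. H2B-GFP is a histone label that is diluted at each division, and HSCs and MPPs were sorted as GFP-high or GFP-low after a chase of 17 days. This sort came 15 days past the final poly(I:C) dose, with 3 KO and 3 WT libraries of each. Exact ages, the surface markers of the sort and the number of mice per library are not given in the sources used here.

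Each ribosome carries 1 copy of nearly every ribosomal protein, so cells make these proteins in matched amounts. Most of these mRNAs begin with a run of pyrimidines, the terminal oligopyrimidine motif, through which mTOR signalling controls their translation together. HSCs are known for a low rate of protein synthesis compared with progenitors, and loss of 1 copy of certain ribosomal protein genes causes Diamond-Blackfan anaemia, a failure of red cell production.

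Windows around the annotated start sites of members whose KO values stood apart from the other members are shown, both with and without a pyrimidine run nearby. Each line covers 10 bases before and 20 from the annotated start, 5′ to 3′ on the gene's strand, from RefSeq (GRCm38.p6), with capitals marking a run of 7 or more pyrimidines that begins with C.
Rps12 (chr10:23787190-23787219, minus strand): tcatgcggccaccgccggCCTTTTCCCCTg
Rps21 (chr2:180257369-180257398, plus strand): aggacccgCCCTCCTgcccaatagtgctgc
Rpl28 (chr7:4792955-4792984, plus strand): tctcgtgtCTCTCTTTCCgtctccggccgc
Rpl39 (chrX:37085203-37085232, minus strand): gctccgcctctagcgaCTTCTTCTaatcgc
Rplp2 (chr7:141447641-141447670, plus strand): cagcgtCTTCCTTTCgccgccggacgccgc
Rpl35 (chr2:39005112-39005141, minus strand): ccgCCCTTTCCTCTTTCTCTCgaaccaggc
Rps27l (chr9:66946076-66946105, plus strand): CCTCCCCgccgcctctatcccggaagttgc
Rps4x (chrX:102189372-102189401, minus strand): gctgggcggagcaacccaggctccagcgcg
Rpl41 (chr10:128549149-128549178, minus strand): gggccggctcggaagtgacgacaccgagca

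Such a run, searched on the gene's own strand within these 30 bases, was present at a start site of 30 of the 59 members with a RefSeq entry (50.8%) and of 15.6% of 27025 genes of any kind. The run included the annotated start in Rps21, Rpl28, Rplp2 and Rpl35, while it lay wholly before it in Rps27l and wholly after it in Rps12 and Rpl39. Members without a run were also found among those that lay low (Rps4x, Rpl22, Rps15 and Rpl37) and among those that lay high (Rpl41 and Rpl37a). A match describes these letters alone, and its absence says nothing of how a gene is controlled. Rps21 and Rps27l each have a further annotated start without the run.

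Several members cannot be told from copies of themselves. Of 78 members with a coding sequence in GENCODE vM21, 73 had at least 1 other gene matching 95% or more of its bases over 90% or more of its length, 17 had 10 or more, and 5 had none, among them Rpl8, Rps3, Rps27l and Rpl39l. Rps27 is shown with its copy Rps27rt and its paralog Rps27l because the level of Rps27 depended on the cohort. The lines give bases 61 to 180 of the coding sequence (GENCODE, GRCm38), with capitals where Rps27l differs from Rps27.
Rps27 (chr3:90212522-90213651, minus strand): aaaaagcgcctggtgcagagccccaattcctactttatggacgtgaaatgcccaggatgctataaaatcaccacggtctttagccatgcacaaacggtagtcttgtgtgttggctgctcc
Rps27rt (chr9:114982366-114982739, minus strand): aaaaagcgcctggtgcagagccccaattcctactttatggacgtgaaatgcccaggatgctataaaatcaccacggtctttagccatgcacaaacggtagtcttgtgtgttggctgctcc
Rps27l (chr9:66946086-66949516, plus strand): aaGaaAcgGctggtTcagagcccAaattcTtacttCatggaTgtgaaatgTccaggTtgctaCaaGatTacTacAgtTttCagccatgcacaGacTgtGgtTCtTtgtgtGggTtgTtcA

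The coding sequence of Rps27, 255 bases long, was identical to that of Rps27rt and differed from that of Rps27l at 61 bases (76.1% identity). Rps27 averaged 1310 ± 196 FPKM in KO and 1123 ± 89.0 FPKM in WT total HSCs (SD, n = 4 each), and 1379 ± 266 FPKM in KO and 1355 ± 161 FPKM in WT total MPPs (SD, n = 4 each). In the H2B-GFP tables it was listed at 1.07 to 4.31 FPKM in KO and 1.77 to 3.72 FPKM in WT libraries. Rps27rt followed it, with 584 to 918 FPKM in KO and 537 to 813 FPKM in WT libraries of the first cohort, and 0.315 to 1.47 FPKM in KO and 0.263 to 1.04 FPKM in WT libraries of the H2B-GFP cohort. Rps27l, which no other gene resembles that closely, was at 184 FPKM or more in all 12 KO and 181 FPKM or more in all 12 WT libraries of the H2B-GFP cohort.

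Gaps between cohorts were found for some other members, and their relation to the number of copies was not tested. As a share of the summed FPKM of all members, Rps27 was 314-fold higher in the first cohort than in the H2B-GFP cohort, Rpl13a 36.6-fold and Rpl30 18.8-fold, while Rpl24 ran the other way with a ratio of 0.0928. Rps24, Rpl18 and Rps25 were 4.80-fold, 4.26-fold and 4.15-fold higher in the first cohort, and 58 of the 77 members measured in all tables stayed within 2-fold. Among members with 22 or more copies, the ratio was 0.72 for Rpl21 with 56 copies, 0.78 for Rpl7a with 32 and 1.2 for Rpl29 with 25. It was 2.25 for Rps12 with 23 and 1.05 for Rps2 with 22. Rpl26, at 538 ± 68.7 FPKM in KO and 510 ± 62.3 FPKM in WT total HSCs (SD, n = 4 each), was no member in any H2B-GFP table. The tables also treated pseudogenes differently: -ps symbols took 5.64% to 7.09% of summed FPKM in the first cohort, which is listed by Ensembl IDs, and 0.030% to 0.044% in the H2B-GFP cohort, listed by NCBI IDs. The part that counting played in these levels was not tested, and levels of such members are given only within a table.

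**Figure D1:**
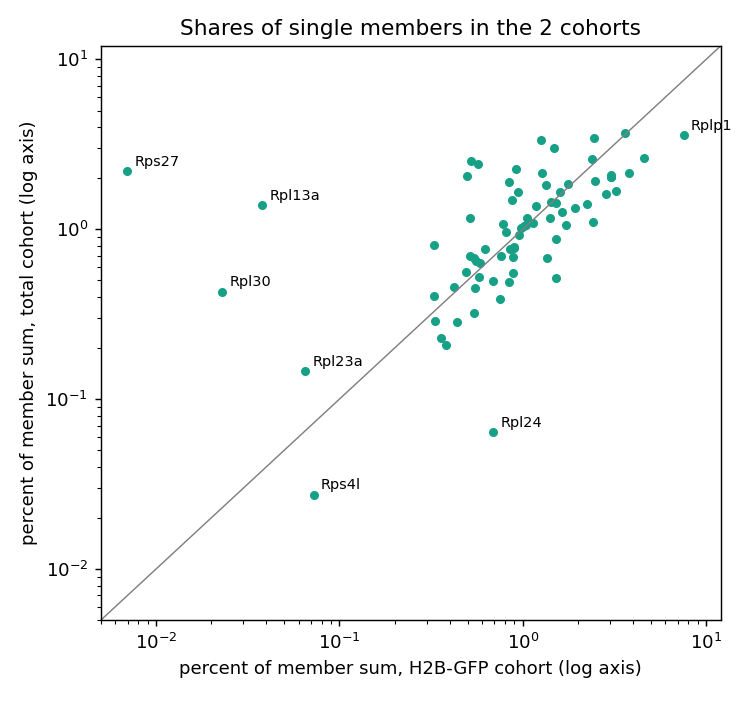
Each point is 1 member, with its percent of the summed FPKM of all members in the H2B-GFP cohort (x, mean of 4 tables) and in the first cohort (y, mean of 2 tables), both on log axes, with the line of equal shares. Rps27, Rpl13a and Rpl30 lie far above the line and Rpl24 below it.

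The libraries held about 18250000 to 32480000 recovered reads in the first cohort and 5820000 to 9570000 in the H2B-GFP cohort. Hira itself did not check the labels: its level overlapped between KO and WT in each table, at 0.720 to 2.74 FPKM in KO and 0.840 to 3.22 FPKM in WT libraries, with log2 differences of -0.23 to 0.13 and two-sided exact permutation p of 0.3 to 0.8. With 3 libraries a group such a test cannot give less than 0.1, and with 4 not less than 0.0286. A deletion that leaves other exons transcribed would not show in the gene's summed value. T cell markers summed to 2.26 FPKM or less in KO and 0.872 FPKM or less in WT libraries, with Cd8a at 0 in 3 of the tables. Mature neutrophil markers summed to 28040 FPKM in KO replicate 3 of GFP-low HSCs and 23400 FPKM in KO replicate 3 of GFP-high MPPs, against 2014 to 9530 FPKM in the other KO and 3549 to 8521 FPKM in the WT libraries of the H2B-GFP cohort. In GFP-high HSCs the neutrophil sums were lower in KO without overlap (4140 to 5291 FPKM in KO and 5320 to 7157 FPKM in WT libraries). B cell markers, 1 or 2 of 5 detected, separated the genotypes in both GFP-low populations. Their sums were 31.81 to 41.02 FPKM in KO and 25.52 to 31.56 FPKM in WT GFP-low HSCs. In GFP-low MPPs they were 21.98 to 32.25 FPKM in KO and 32.26 to 40.91 FPKM in WT libraries. Erythroid markers summed to 395 to 9611 FPKM in KO and 291 to 5368 FPKM in WT libraries of the first cohort. In the H2B-GFP cohort, where Hba-a2 and Hbb-bs were at 0 and 6 of 8 erythroid markers were detected, their sums separated the genotypes in GFP-low HSCs (413 to 1557 FPKM in KO and 169 to 273 FPKM in WT libraries) and in GFP-low MPPs (941 to 1285 FPKM in KO and 433 to 846 FPKM in WT libraries), and overlapped in both GFP-high populations. HSC and progenitor markers, 9 or 10 of 10 detected, were lower in KO without overlap in total MPPs (440 to 526 FPKM in KO and 542 to 605 FPKM in WT libraries) and in GFP-low MPPs (459 to 608 FPKM in KO and 617 to 695 FPKM in WT libraries). Macrophage markers, 3 of 6 detected, summed to 19.1 to 23.2 FPKM in KO and 8.81 to 15.3 FPKM in WT total HSCs. With 2 of 6 detected, they were lower in KO GFP-high HSCs (2.51 to 6.03 FPKM in KO and 6.24 to 10.9 FPKM in WT libraries). They were higher in KO GFP-low HSCs (6.125 to 20.97 FPKM in KO and 5.01 to 5.84 FPKM in WT libraries) and overlapped in the MPP populations. Stroma and endothelium markers, 2 of 5 detected, summed to 10.15 to 13.38 FPKM in KO and 7.618 to 8.35 FPKM in WT GFP-low HSCs. Their sums overlapped in the other populations. The part of these marker differences in the results below was not tested. In sorted populations, fewer cells of a type and less RNA per cell cannot be told apart.

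The share of summed FPKM taken by ribosomal protein transcripts was compared between KO and WT libraries without a test. Members made up 9.52% ± 0.20 of summed FPKM in KO and 9.46% ± 0.34 in WT total HSCs, and 9.88% ± 0.81 in KO and 10.1% ± 0.18 in WT total MPPs (SD, n = 4 each). In the H2B-GFP cohort the shares were 13.4% ± 0.48 in KO and 13.5% ± 0.45 in WT GFP-high HSCs, 12.2% ± 1.5 and 12.6% ± 0.89 in KO and WT GFP-low HSCs, 12.0% ± 1.48 and 13.2% ± 0.37 in KO and WT GFP-high MPPs, and 12.5% ± 0.66 and 12.7% ± 0.31 in KO and WT GFP-low MPPs (SD, n = 3 each). Each difference was smaller than the larger SD of its pair, which does not show that the shares were equal. As a share of recovered reads, members took 9.42% ± 1.48 in KO and 10.97% ± 0.28 in WT GFP-high MPPs (SD, n = 3 each). Only in that population did the difference in read share exceed the larger SD. The 2 libraries rich in neutrophil markers had the lowest shares of their groups, 10.4% in KO replicate 3 of GFP-low HSCs and 10.7% in KO replicate 3 of GFP-high MPPs, and the part of neutrophil RNA in those shares was not tested.

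**Figure D2:**
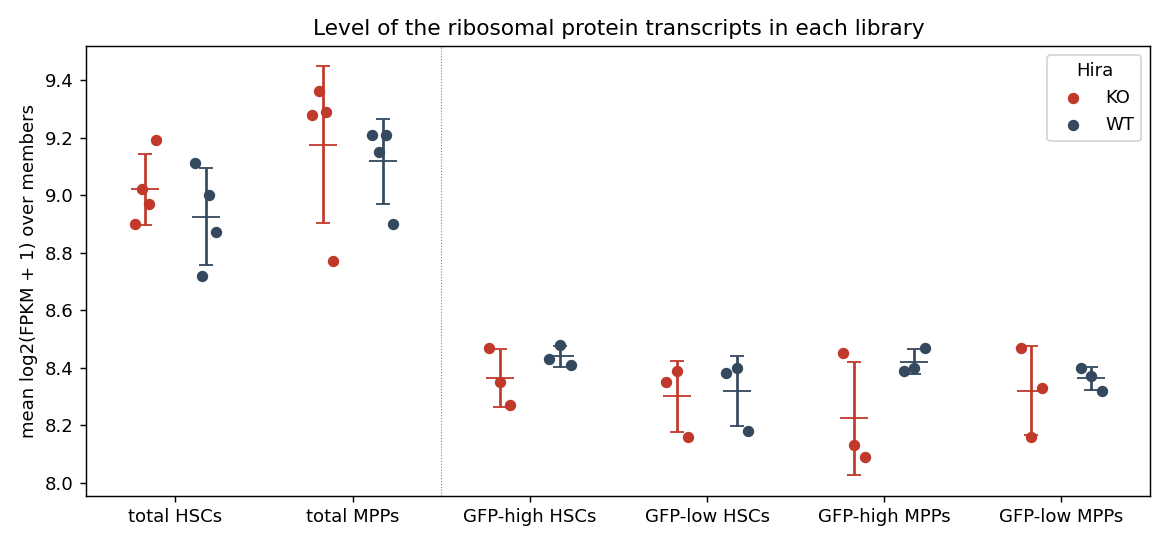
Mean log2(FPKM + 1) over the members (y) in each library, with KO in red left of WT in dark blue, horizontal marks for group means and bars for the SD (n = 4 for total and 3 for GFP populations). KO replicate 4 of total MPPs lies lowest in its table at 8.77, and KO and WT libraries overlap in each population; levels are scaled within a table, so tables are not compared.

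No member passed the test in any of the 6 comparisons of KO with WT (limma on log2(FPKM + 1), Benjamini-Hochberg adjustment over all tested genes, threshold 0.05). In the same fits, calls over all genes came to 0.124% of 13717 for total HSCs, 0.108% of 13916 for total MPPs, 0.0276% of 10850 for GFP-high HSCs and 0.32% of 10621 for GFP-low MPPs, with 0.0% for GFP-low HSCs and likewise 0.0% for GFP-high MPPs.

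At an unadjusted limma p under 0.05, 0 members were higher (3.61% of all genes) and 11 lower (3.48% of all genes) in GFP-high MPPs, from FPKM as deposited. In GFP-high HSCs 0 were higher (5.64%) and 3 lower (4.72%), and in GFP-low HSCs 1 was higher (4.67%) and 2 were lower (3.9%). Those of GFP-low HSCs were Rps4l, which was higher, and Rpl32l and Rps27, which were lower. Rps4l and Rpl32l are annotated as pseudogenes, and Rps27 had 8 to 40 reads a library there. In total MPPs 2 were higher (8.77%) and 0 lower (7.79%). There were 0 either way in total HSCs (4.87% of all genes higher and 5.21% lower) and in GFP-low MPPs (6.12% higher and 6.16% lower). With columns rescaled to one total, the counts were 0 higher (6.53% of all genes) and 4 lower (1.88%) in GFP-high MPPs, 3 higher (7.75%) and 4 lower (4.36%) in GFP-low MPPs, and 0 higher (9.31%) and 0 lower (2.48%) in GFP-high HSCs. They were 1 higher (3.6%) and 2 lower (4.82%) in GFP-low HSCs, 2 higher (5.4%) and 1 lower (8.72%) in total MPPs, and 0 higher (2.91%) and 0 lower (6.18%) in total HSCs.

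Libraries of KO and WT separated without overlap for few members. In total HSCs 1 member lay above WT (2.81% of all genes) and 0 below (3.39%), and in total MPPs 0 lay above (5.08%) and 0 below (4.84%). In GFP-high HSCs 0 lay above (8.61%) and 7 below (7.47%), and in GFP-low HSCs 1 above (7.67%) and 2 below (6.42%). The 2 below in GFP-low HSCs were the pseudogene Rpl32l and Rps27 with its few reads. In GFP-high MPPs 0 lay above (6.74%) and 10 below (6.59%), and GFP-low MPPs had 1 above (9.73%) and 1 below (9.33%). With limma-voom on the recovered reads the number of members called was also 0 in each comparison.

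The intervals bound how large a change could have been missed. The 95% interval of the difference lay within 1.5-fold either way for 79 of 80 members in total HSCs (77.8% of all genes), 68 of 79 in total MPPs (54.5%), 76 of 78 in GFP-high HSCs (70.7%), 74 of 78 in GFP-low HSCs (49.5%), 46 of 78 in GFP-high MPPs (64.0%) and 72 of 78 in GFP-low MPPs (60.7%). GFP-high MPPs were therefore the population in which a lower level was least bounded: the lower end of the interval fell below a 1.5-fold decrease for all but 49 of the 78 members.

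The sign of the members' median depended on the scaling in 3 of the 6 populations. In total HSCs 73 of 80 members had a higher mean in KO, with a median log2 difference of 0.09 against 0.00 over all genes, and with columns rescaled to one total the median was 0.02 against -0.06 over all genes. In total MPPs the median was 0.06 with 57 of 79 higher, and it turned to -0.02 on rescaling. In GFP-high HSCs 66 of 78 members were lower with a median of -0.07, which turned to 0.01, and in GFP-low MPPs 58 of 78 were lower with a median of -0.05, which turned to 0.01. In GFP-low HSCs the median was -0.01 as deposited and -0.05 rescaled. In GFP-high MPPs the sign was kept: 71 of 78 members were lower, with a median of -0.22 as deposited and -0.12 rescaled, where the median of all genes was 0.00 and 0.09.

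**Figure D3:**
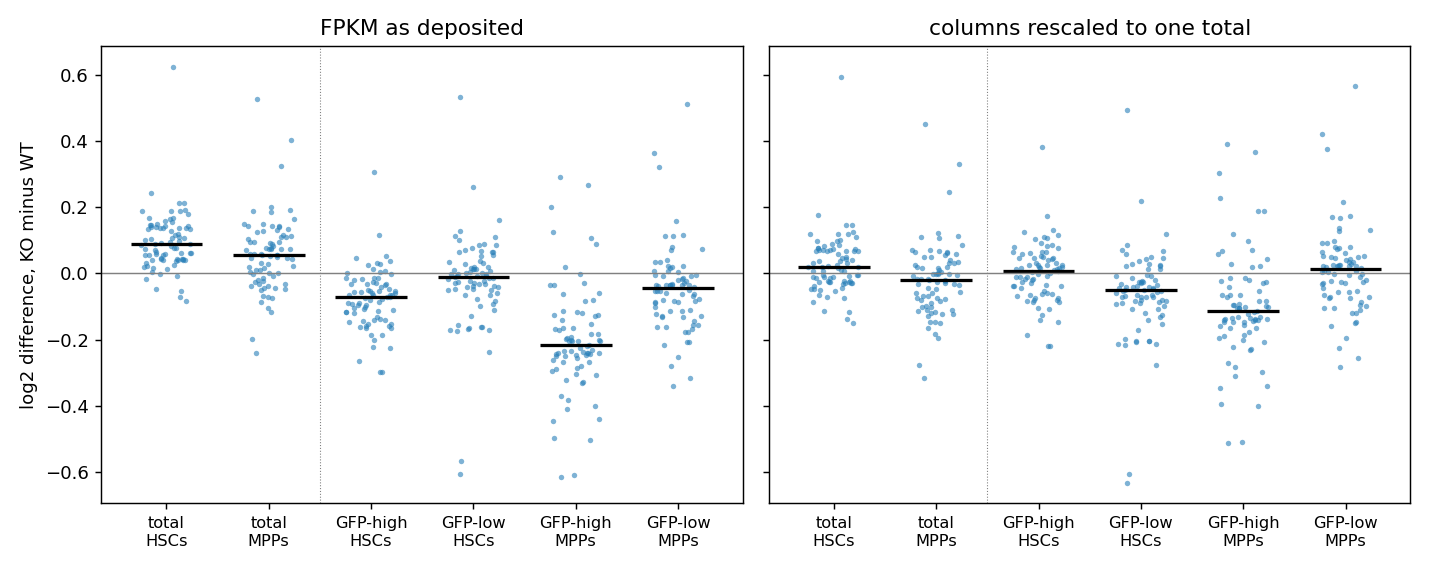
Each dot is the log2 difference KO minus WT of 1 member (y) in each of the 6 populations (x), from FPKM as deposited on the left and after rescaling columns to one total on the right, with black bars at the medians. The medians of total MPPs, GFP-high HSCs and GFP-low MPPs change sign between the panels and that of GFP-high MPPs, -0.22 and -0.12, does not.

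Members moved together from library to library within a genotype. After removing group means, the median correlation between pairs of members over the libraries of a table was 0.89 for both total populations, 0.64 for GFP-high HSCs, 0.81 for GFP-low HSCs and 0.83 for both GFP populations of MPPs, against 0.00 between pairs of all tested genes. These correlations rest on 8 or 6 libraries that share their scaling, and a first component held 57.5% to 89.8% of the members' variance. In total HSCs the median deviation of members was 0.22 in KO replicate 4, whose summed FPKM of 666500 was the highest of the table, and -0.26 in WT replicate 2, whose sum of 526800 was the lowest. In total MPPs it was -0.39 in KO replicate 4 (summed FPKM 541300) and -0.26 in WT replicate 4 (521700), against 0.14 to 0.21 in the other KO libraries (630300 to 663300) and -0.01 to 0.08 in the other WT libraries (600000 to 627800). With columns rescaled to one total, the deviation was 0.06 in KO replicate 4 and -0.08 in WT replicate 2 of total HSCs. In total MPPs it was still -0.23 in KO replicate 4 and was -0.04 in WT replicate 4.

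The medians moved when single libraries were left out. Without KO replicate 4 the median difference in total MPPs was 0.19, with 75 of 79 members higher and 13 of them at an unadjusted limma p under 0.05 (11.5% of all genes were higher at that threshold), and without WT replicate 4 it was -0.02. In total HSCs the median was 0.01 without WT replicate 2, 0.03 without KO replicate 4 and 0.16 without WT replicate 1. In GFP-low HSCs it was 0.06 without KO replicate 3, the library highest in neutrophil markers, and in GFP-low MPPs 0.02 without KO replicate 2 and -0.13 without KO replicate 1. No member was called in any of these fits.

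GFP-high MPPs held the lowest KO values. The median deviation of members was 0.14, -0.20 and -0.26 in the 3 KO libraries and 0.08, 0.07 and 0.16 in the 3 WT libraries, so KO replicate 1 lay among the WT libraries and the other 2 below them. KO replicate 3 was the library with 23400 FPKM of neutrophil markers, and KO replicate 2 had 6123 FPKM, against 4084 to 5552 FPKM in WT libraries. On rescaling, the deviations were 0.12, -0.08 and -0.20 in KO and 0.03, 0.09 and 0.05 in WT libraries, so KO replicate 3 was lowest on both scales. Without KO replicate 3 the median difference was -0.14 with 73 of 78 members lower. Without KO replicate 1 it was -0.35, with 50 members lower at an unadjusted limma p under 0.05 (4.36% of all genes) and a lowest adjusted p of 0.0932, for Rps21. Every other omission lowered the count of 11 members: it was 1 without KO replicate 2, 3 without KO replicate 3, and 3 or 4 without any one of the WT replicates. Members with every KO library below every WT library included Rpl22, Rpl28, Rpl39, Rpl7a, Rps12, Rps21, Rps29 and Rps4x.

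**Figure D4:**
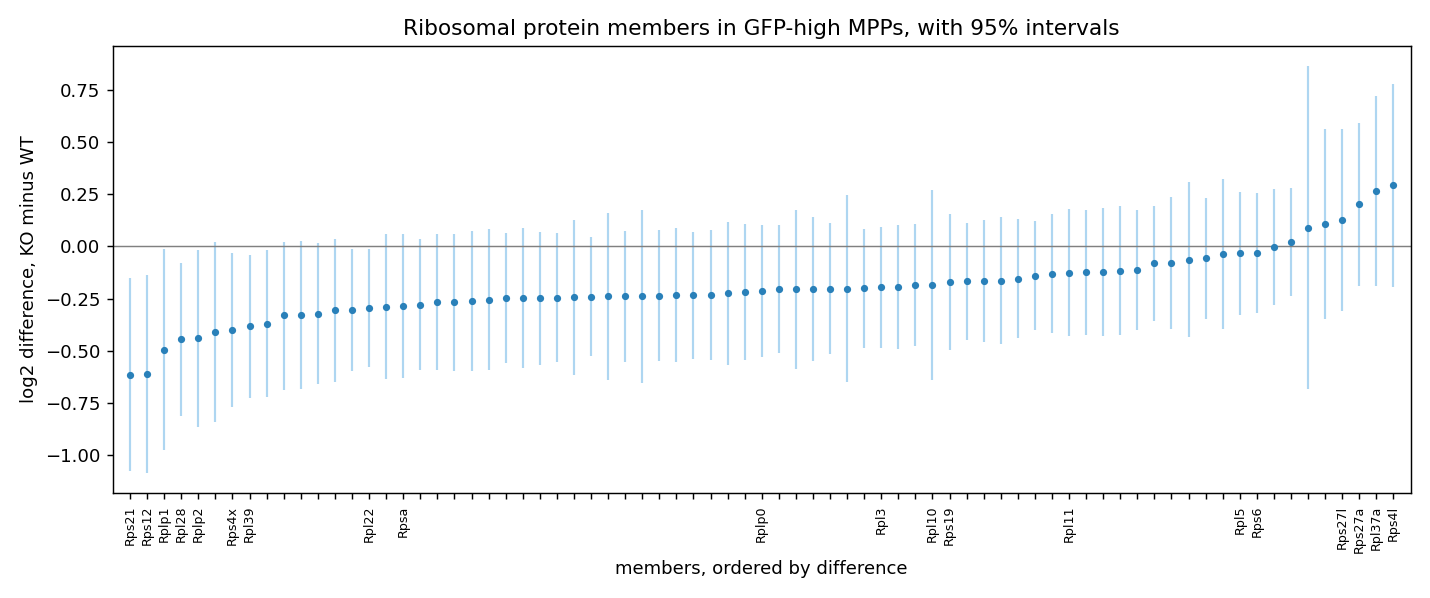
Log2 difference KO minus WT (y) with its 95% interval from limma for 75 members in GFP-high MPPs (x, ordered by difference, with the symbols of members described in the text), n = 3 libraries per genotype. Rps21 and Rps12 lie lowest and Rps4l highest, and 68 of the 75 points are below 0.

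The acidic stalk proteins, which recruit elongation factors to the large subunit, included the member with the most uniform direction. Rplp1, which pairs with Rplp2 on the stalk, was the most abundant member in the H2B-GFP tables and 1 of 3 most abundant in the first cohort. Its mean was lower in KO in 6 of 6 tables, and it was the single member for which this held. In the other direction, 0 members were higher in 6. The shares of all genes lower or higher in 6 tables were not computed, so these counts have no background beside them. In GFP-high MPPs it had 3591, 2369 and 1987 FPKM in KO libraries, against 3491, 3444 and 3942 FPKM in WT libraries. The groups overlapped through KO replicate 1, and the log2 difference was -0.50 ± 0.21 (SE, limma, adjusted p = 0.686).

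Rplp1 had 3374, 2985 and 2759 FPKM in KO, against 3421, 3570 and 3604 FPKM in WT GFP-high HSCs, where each KO library lay below each WT library (log2 difference -0.22 ± 0.09, SE, limma, adjusted p = 0.459). In GFP-low MPPs the values were 2977, 2097 and 2434 FPKM in KO and 3216, 3090 and 2943 FPKM in WT libraries, with 1 KO library among the WT values (-0.32 ± 0.14, SE, limma, adjusted p = 0.413). The log2 differences in GFP-low HSCs, total MPPs and total HSCs were -0.16, -0.24 and -0.08, all within the spread of their libraries. On rescaling the 6 differences ran from -0.39 to -0.14, but in total HSCs the difference was 0.01 without WT replicate 1. Rplp2 was lower in 5 of 6 tables as deposited and in all 6 on rescaling, by log2 differences down to -0.44 in GFP-high MPPs, while Rplp0, the protein that anchors the stalk, differed by -0.22 there and by -0.07 to 0.04 in the other 5 tables.

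Among small subunit members, Rps12 and Rps21 had the most negative differences in GFP-high MPPs. Rps12 had 384, 234 and 211 FPKM in KO and 394, 424 and 406 FPKM in WT libraries. Rps21 had 660, 418 and 369 FPKM in KO and 695, 719 and 732 FPKM in WT libraries. In both, KO replicate 1 lay just under the WT values and the other KO libraries far below, with log2 differences of -0.61 ± 0.21 and -0.61 ± 0.20 (SE, limma, adjusted p = 0.561 and 0.556). In GFP-low MPPs Rps12 had 368, 243 and 266 FPKM in KO and 391, 356 and 347 FPKM in WT libraries (log2 difference -0.34, limma, adjusted p = 0.421). In total HSCs its log2 difference was 0.14, so the direction was not shared by all populations.

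Rps4x, the X-linked gene of its protein, was lower in 4 of 6 tables as deposited and in all 6 on rescaling, with 1318, 922 and 925 FPKM in KO and 1338, 1453 and 1329 FPKM in WT GFP-high MPPs (log2 difference -0.40, limma, adjusted p = 0.67). Its copy Rps4l, annotated as a pseudogene in GENCODE and listed at 6.09 to 46.9 FPKM, ran the other way in 5 of 6 tables. In GFP-low HSCs Rps4l had 29.3, 39.1 and 41.0 FPKM in KO and 20.1, 31.7 and 23.4 FPKM in WT libraries, which overlapped (log2 difference 0.53 ± 0.19, SE, limma, adjusted p = 0.526). Rps6, the target of S6 kinases, differed little: log2 differences were -0.03 to 0.07 over the 6 tables. Rpsa, which doubles as a laminin-binding protein, ranged from -0.29 to 0.04.

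Rps27l, a paralog of Rps27 that p53 is known to induce, lay above the members' median difference in 5 of 6 tables. In total MPPs it had 600, 702, 643 and 360 FPKM in KO libraries, against 455, 410, 430 and 280 FPKM in WT libraries. Of the KO libraries 3 exceeded the WT values, and KO replicate 4, low in most members, lay among them (log2 difference 0.53 ± 0.22, SE, limma, adjusted p = 0.276). Without that library the adjusted limma p of Rps27l was 0.0574, the lowest of any member in any fit. In GFP-low MPPs it had 277, 277 and 442 FPKM in KO and 275, 221 and 260 FPKM in WT libraries, which did not overlap though the closest values differed by about 1 FPKM (0.36 ± 0.19, SE, limma, adjusted p = 0.465). The log2 difference was -0.12 in GFP-high HSCs and between 0.13 and 0.16 in the remaining populations, and in GFP-high MPPs it turned to -0.10 without KO replicate 3.

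Among large subunit members, Rpl39, which lines the exit tunnel of the ribosome, was the 1 member of 77 whose KO libraries all lay below the WT libraries in 3 tables, an order in 3 or more tables that 2.27% of 9341 genes tested in all tables shared. The opposite order in 3 or more tables was found for 0 members and 2.34% of these genes. In GFP-high HSCs it had 356, 315 and 277 FPKM in KO and 366, 406 and 388 FPKM in WT libraries. In GFP-high MPPs it had 376, 263 and 294 FPKM in KO and 395, 427 and 383 FPKM in WT libraries. In GFP-low MPPs it had 383, 285 and 303 FPKM in KO and 394, 387 and 391 FPKM in WT libraries. In all 3 the highest KO library lay just under the lowest WT library, with log2 differences of -0.30 ± 0.11, -0.38 ± 0.15 and -0.28 ± 0.13 (SE, limma, adjusted p = 0.39, 0.653 and 0.412).

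In GFP-low HSCs 2 of the 3 KO libraries of Rpl39 lay below all WT values, with 342, 345 and 287 FPKM in KO and 377, 375 and 344 FPKM in WT libraries (log2 difference -0.17). The first cohort did not show that order. In total MPPs Rpl39 had 526, 529, 565 and 235 FPKM in KO and 579, 555, 466 and 330 FPKM in WT libraries, and the log2 difference of -0.11 turned to 0.19 without KO replicate 4. In total HSCs the difference was 0.14. Rpl39 has 9 close copies by the rule above.

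**Figure D5:**
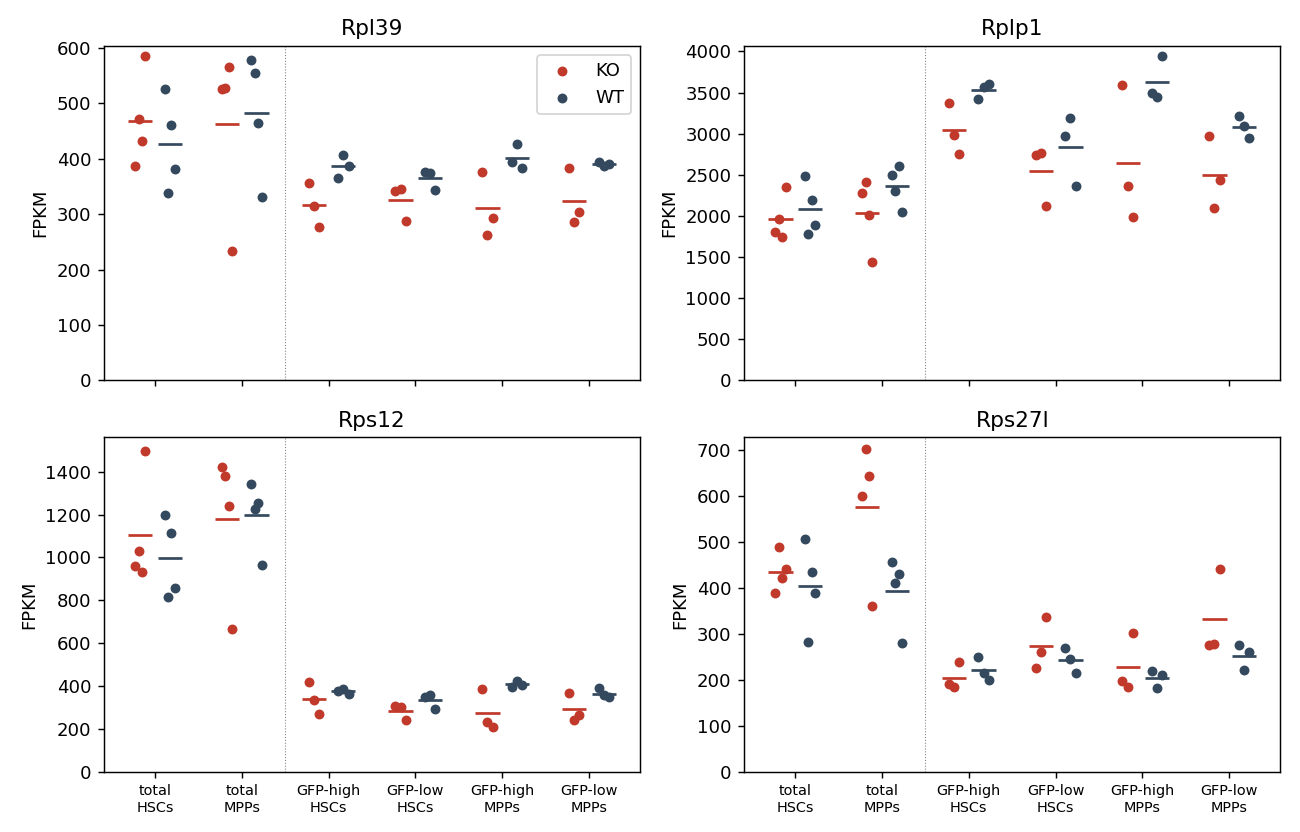
FPKM (y, linear axes from 0) of Rpl39, Rplp1, Rps12 and Rps27l in each library of the 6 populations (x), KO in red left of WT in dark blue, with bars at group means. Rpl39 in KO GFP-high HSCs, GFP-high MPPs and GFP-low MPPs lies below WT with no overlap; levels are not compared between tables.

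Other large subunit members followed the same pattern of small, uncalled differences. Rpl38, known in mice for its part in translating Hox mRNAs, had 688, 644 and 578 FPKM in KO and 720, 780 and 729 FPKM in WT GFP-high HSCs, without overlap (log2 difference -0.23 ± 0.09, SE, limma, adjusted p = 0.454). Rpl28 had 220, 158 and 148 FPKM in KO and 231, 227 and 249 FPKM in WT GFP-high MPPs (-0.45 ± 0.16, SE, limma, adjusted p = 0.591). Rpl22, needed in mice for development of alpha-beta T cells, had 155, 123 and 127 FPKM in KO and 164, 165 and 166 FPKM in WT GFP-high MPPs (-0.30, limma, adjusted p = 0.685). Rpl5 and Rpl11, which hold the 5S rRNA and can bind Mdm2, differed by log2 -0.03 to 0.19 and -0.13 to 0.04 over the 6 tables. Rpl3 and Rpl10 differed by -0.20 to 0.12 and -0.18 to 0.10.

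Rpl35 led total MPPs, with 264, 305, 289 and 238 FPKM in KO and 215, 209, 246 and 204 FPKM in WT libraries. One KO library lay below the highest WT library, and the log2 difference of 0.32 ± 0.12 had an adjusted p of 0.229 (SE, limma). Rpl15 there had 751, 799, 790 and 679 FPKM in KO and 640, 666, 720 and 601 FPKM in WT libraries (0.20, limma, adjusted p = 0.439). Rpl41, the smallest ribosomal protein, had 947, 1091 and 972 FPKM in KO and 849, 942 and 732 FPKM in WT GFP-low HSCs, without overlap (0.26 ± 0.13, SE, limma, adjusted p = 0.637). The single member without overlap in total HSCs was Rps27a, a fusion of ubiquitin with a small subunit protein, at 642, 677, 616 and 664 FPKM in KO and 609, 566, 597 and 544 FPKM in WT libraries (0.17 ± 0.09, SE, limma, adjusted p = 0.556).

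The other members of highest and lowest moderated t differed by 0.57 or less in either direction. In total HSCs Rps2 and Rps15a differed by 0.24 and 0.19 and Rplp0 and Rpl4 by -0.07 and -0.05, and in total MPPs Rps2, Rpsa and Rpl36 differed by -0.20, -0.12 and -0.07. In GFP-high HSCs Rps27a differed by -0.30 and Rpl8 and Rpl32 by 0.05 and 0.04. Members below WT without overlap there included Rpl27, Rpl35a, Rpl38, Rpl39, Rplp1 and Rps2. Rpl32l, a copy of Rpl32 at 17.4 to 55.1 FPKM, differed by -0.57 in GFP-low HSCs, where every KO library was below every WT library, and by 0.51 in GFP-low MPPs, where libraries overlapped. Rpl37a and Rps27a differed by 0.27 and 0.20 in GFP-high MPPs. None of these passed the test.

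The lowest members were those with uncertain counting or at the edge of the rule. Rpl39l, a paralog of Rpl39 enriched in testis, was a member in total HSCs alone, where 4 of 8 libraries reached 1 FPKM: it had 1.67, 0.21, 2.26 and 1.35 FPKM in KO and 0.56, 1.34, 0.15 and 0.04 FPKM in WT libraries. Just outside, it reached 1 FPKM in 2 of 8 libraries of total MPPs and in 2 of 6 of each GFP-low table, and Rpl3l in 1 of 6 of GFP-high MPPs. Rpl26 reached 1 FPKM in 0 of 6 libraries of GFP-low MPPs. The most abundant members in the H2B-GFP cohort were Rplp1, Rplp0 and Rpl32.

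The order of members by KO difference was shared to a varying degree between populations. Of the 77 members in all tables, 10 lay below the members' median in all 6, among them Rplp1, Rpl28, Rps4x, Rplp2, Rpl7, Rps15, Rpl37, Rpl10a and Rpl9, and 4 above it in all 6 (Rpl41, Rpl32, Rpl36a and Rps26). No matching share over all genes was computed for these counts. On average Rplp1 lay 0.22 below the median on the log2 scale, Rps12 0.18 below, Rps27l 0.23 above and Rps4l 0.33 above. Across 78 members the differences in GFP-high and GFP-low MPPs correlated with r = 0.74, and across 77 members those in total and GFP-low MPPs with r = 0.72, while total HSCs correlated with the other 5 tables with r of -0.26 to 0.11. The remaining 8 pairs of tables had r of 0.25 (GFP-low HSCs with GFP-low MPPs) to 0.51 (total with GFP-high MPPs), among them 0.45 for GFP-high with GFP-low HSCs. All these r are Pearson values, and ranks (Spearman) gave others for some pairs. For GFP-low HSCs the rank correlation was 0.47 with GFP-low MPPs. It was 0.54 with GFP-high MPPs (Pearson 0.31) and 0.26 with total MPPs (Pearson 0.44). These are descriptions across genes, which share libraries and are not independent. Over the 76 members with a value, the mean offset had a correlation of 0.01 with transcript length and -0.15 with GC content, and over all 77 of -0.34 with the log of the mean share of member FPKM. By rank the correlation with the mean share was -0.19.

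Differences of KO effects between populations were also tested within each cohort. For total MPPs minus total HSCs, GFP-low minus GFP-high HSCs and GFP-low minus GFP-high MPPs, 0 members passed (limma interaction, lowest adjusted p 0.659, 0.999 and 0.999), against 0.0076%, 0.0% and 0.0% of all genes. The members' median was -0.03, 0.06 and 0.16, so that 75 of 78 members had a less negative KO difference in GFP-low than in GFP-high MPPs. Rescaling moved the median of all genes to -0.11 for GFP-low minus GFP-high HSCs, where the members' median was then -0.06 and 15 of 78 members were positive, against 66 of 78 as deposited. At an unadjusted limma p under 0.05 there were 0, 1 and 0 members, the one being Rps27 with its few reads in the H2B-GFP cohort.

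Genes around the ribosomal proteins gave no call either. In the Diamond-Blackfan anaemia genes, 19 members in the first cohort and 18 in the H2B-GFP cohort, 0 passed in any comparison, with medians of 0.11 for total HSCs, 0.08 for total MPPs, -0.05 for GFP-high HSCs, 0.01 for GFP-low HSCs, -0.18 for GFP-high MPPs and -0.02 for GFP-low MPPs. Rps19, the gene most often mutated in that disease, had 245, 195 and 177 FPKM in KO and 215, 238 and 236 FPKM in WT GFP-high MPPs (log2 difference -0.17), and Rps14, lost in the 5q- syndrome, differed by -0.22 there. Large and small subunit members had medians of -0.20 and -0.23 in GFP-high MPPs, and of 0.07 and 0.11 in total HSCs.

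Beyond the subunits, 0 of 20 translation factors and other terminal oligopyrimidine mRNAs, 0 of 25 ribosome assembly and RNA polymerase I genes and 0 of 20 regulators passed in any comparison. The translation factors had a median of -0.16 in GFP-high MPPs, on the side of the ribosomal proteins, and the assembly genes 0.02 there. In GFP-low MPPs the translation factors had 0.025 (0.083 on rescaling), against -0.05 for the ribosomal proteins as deposited. In total MPPs they had 0.15 (0.07 on rescaling). Their medians were 0.09 in total HSCs, -0.05 in GFP-high HSCs and -0.02 in GFP-low HSCs. Mitochondrial ribosomal proteins, which build the separate ribosome of that organelle, had 0 calls among 76 or 77 genes, with medians of 0.20 in total MPPs (66 of 76 higher), 0.11 in GFP-low MPPs (63 of 77 higher) and 0.01 in GFP-high MPPs, and of 0.13, 0.16 and 0.11 on rescaling. Cytosolic members in the same 3 populations had medians of 0.06, -0.05 and -0.22, and of -0.02, 0.01 and -0.12 on rescaling. The 6 ribosome components outside the symbol rule had 0 calls and medians of -0.18 in GFP-high MPPs to 0.04 in total HSCs.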

How the data were processed

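RNA from sorted cells (polyA RNA, Trizol, SMART-Seq2, Nextera XT, per the labels' protocols) was analysed in 40 libraries of 12 groups. The authors deposited FPKM values per gene and library, 1 table for each of 6 populations; STAR, DESeq2, HOMER and mm10 are named in the submitters' processing notes without role or version. Each table was taken as scaled by itself, by a method not given in the sources used here, so levels were not compared between tables. Genes of short or copied sequence, and genes that overlap on opposite strands, are uncertain: strandedness and the handling of reads with several matches are not given in the sources used here. All value columns were used.

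FPKM steps gave whole reads (within 0.01) for 99.994% to 99.996% of genes. Differences are KO minus WT on log2(FPKM + 1), which understates changes of low genes, tested in each table with limma 3.58.1 (R 4.3.3, intensity trend, two-sided) after the filter at 1 FPKM; p-values were adjusted over all tested genes by Benjamini-Hochberg. Hira was compared by an exact permutation test. The fit was tested on simulated data. Of 100 genes changed 1.5-fold, it called 5 in the table of GFP-low HSCs and 21 in that of GFP-high MPPs. The other tables gave 31 (GFP-low MPPs), 33 (total MPPs), 35 (GFP-high HSCs) and 52 (total HSCs). Of 100 genes changed 3-fold, 99 or 100 were called in every table, and 8 to 20 unchanged genes were also called. Most changes of 1.5-fold could therefore be missed in all tables but that of total HSCs. Copies were found with BLASTN 2.17.0; other steps used Python 3.11.15, pandas 2.3.3, scipy 1.17.1 and matplotlib 3.10.9. The closest of 48 replicate pairs differed by a chi-square of 6.98 per gene (genes with 20 or more reads), so none was treated as a repeat. The series calls replicates biological, without saying whether each is a mouse or a pool.

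The members and lists were chosen with earlier results of these data known. Named members were all that passed the test (there were 0), in each comparison the 4 highest and 4 lowest moderated t at a mean log2(FPKM + 1) of 3 or more, the 3 highest and 3 lowest in level, a set of well-known members and paralogs, members without overlap in the same direction in 3 or more tables, and those at the edge of the filter; some members are not reported by name here and are included only in counts and summaries. Others given beside them, as in the counts of members below or above the median in all tables, were chosen after their values were seen. Alternatives were rescaled columns, a pseudocount of 0.1, no filter, no trend, limma-voom on recovered reads, a replicate block and each library left out.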

Additional observations from a re-analysis of the deposited data

Results flagged for a closer look

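Within groups of 4 libraries, 1 library stood apart from the other 3 in 11 of 138 sets of values tested; chance flags about 1 set in 20, and the sets share libraries. KO replicate 4 of total MPPs accounted for 8 of them, as the lowest library. Its mean log2(FPKM + 1) over members was 8.77, with 9.28 in the next lowest KO library. The single members were Rpl11 (236 FPKM, next 337), Rpl22 (90.2, next 141), Rpl38 (424, next 863), Rpl39 (234, next 526), Rps15a (90.8, next 162), Rps4x (958, next 1294) and Rps6 (1150, next 1336). This library had 452 FPKM of mature neutrophil markers, the lowest of its table, and a summed FPKM of 541300; their part in its low values was not tested.

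In total HSCs, KO replicate 4 was high in Rpl28 (228 FPKM, next 188), and WT replicate 2 was low in Rps19 (318, next 370). In total MPPs, WT replicate 3 was high in Rpl36 (1420, next 1201).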

How the results depend on the processing

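The number of members past the test was 0 in all 6 comparisons of KO with WT under each alternative, and 0 in the 3 tests of a difference of KO effects with rescaled columns, a pseudocount of 0.1 and no filter. The lowest adjusted p under any of them was 0.0574 for Rps27l in total MPPs without KO replicate 4. The members' median moved by more than the SD between libraries in 1 case, GFP-high HSCs with rescaled columns (0.008, against -0.071). With 1 library left out the median ran from 0.011 to 0.157 in total HSCs, -0.02 to 0.186 in total MPPs, -0.139 to -0.024 in GFP-high HSCs, -0.088 to 0.055 in GFP-low HSCs, -0.348 to -0.135 in GFP-high MPPs and -0.132 to 0.021 in GFP-low MPPs. Without mitochondrially encoded genes in the sum, the members' share was 10.66% in KO and 10.49% in WT total HSCs and 11.05% in KO and 11.26% in WT total MPPs; the H2B-GFP tables hold none of these genes. Of 102 values of named members under rescaling or the other pseudocount, 0 changed sign, and of 342 with 1 library left out 8 did, none of them called: Rplp1 (-0.171 to 0.007) and Rps4l (-0.149 to 0.021) in total HSCs, Rpl36 (-0.143 to 0.039) and Rpl39 (-0.276 to 0.194) in total MPPs, Rpl8 (-0.012 to 0.093) and Rpl32 (-0.008 to 0.084) in GFP-high HSCs, and Rps27l (-0.096 to 0.262) in GFP-high MPPs. Whether shared replicate numbers pair the libraries was not settled. Deviations of same-numbered KO and WT libraries correlated at -0.116 to 0.285, and in no table did every such pair exceed 0.1. The highest value was that of replicate 4 of total MPPs. There the highest correlation of the KO library with a WT library of another number was -0.072. With the replicate block the number of members called was 0 in each comparison, with a lowest adjusted p of 0.0605 in total MPPs, while all-gene calls were 10, 137, 2, 0, 0 and 52, against 17, 15, 3, 0, 0 and 34 without it, in the order total HSCs, total MPPs, GFP-high HSCs, GFP-low HSCs, GFP-high MPPs and GFP-low MPPs; limma-voom called 27, 114, 2, 0, 0 and 35. Depth limits the low members most: Rps27 rested on 8 to 40 reads a library in GFP-low HSCs.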
